A study of Mus musculus with 12 samples.

Results

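The genes of xenobiotic metabolism described here are the cytochromes P450, the UDP-glucuronosyltransferases of families 1 and 2, the cytosolic sulfotransferases and the soluble glutathione S-transferases. They were chosen by gene symbol alone (Cyp with a digit, Ugt1, Ugt2, Sult with a digit, and Gsta, Gstm, Gstp, Gstt, Gsto or Gstz with a digit). Cyp51, which serves cholesterol synthesis, and a numbered pseudogene were left out. The rule gave 162 members of 27179 genes, among them 63 of families Cyp1 to Cyp3, 21 of Cyp4, 18 other Cyp genes, 8 Ugt1, 10 Ugt2, 21 Sult, 4 Gsta, 7 Gstm and 10 of the remaining glutathione transferase classes. Of these, 3 carry a pseudogene name without a number and stayed in.

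Foreign molecules are made soluble in steps. Cytochromes P450 of families 1 to 3 first oxidise them, which is called phase 1, while most P450s outside these families act on fatty acids, sterols, steroids or retinoids. In phase 2, transferases then attach glucuronic acid (Ugt), sulfate (Sult) or glutathione (Gst), and the products leave the cell through transporters of the Abc family. The liver is the best known site of this chemistry, and the lining of the gut, which meets food, bile and bacterial products, carries a set of its own.

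RNA was sequenced from full-thickness colon of mice. The Cre-positive group (7 libraries) had the genotype BAF53b-Cre::R26-iDTR, in which Cre driven by BAF53b, a gene of neurons, switches on a diphtheria toxin receptor (iDTR) at the R26 locus, so that any cell with a history of this Cre can be hit by the toxin. The Cre-negative group (5 libraries) had the genotype R26-iDTR and came from littermates in which the receptor is not expressed. All mice of both groups had a laparotomy with diphtheria toxin and India ink injected into the muscle wall, and the inked area was dissected, so every library comes from an operated, toxin-injected site. Age, sex and the time between injection and dissection are not given in the sources used here. They also do not say whether a library stands for a single mouse. All p-values therefore rest on the variation among libraries, which may be technical.

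Values are TPM, the authors' transcript level scaled to gene length and library size. From the TPM, 13.4 to 26.9 M reads per library were recovered, with Cre-positive 1 the shallowest. Mitochondrial genes took 18.7% of the reads of Cre-positive 1, against 3.56 to 10.4% in the other libraries. Of 12 enteric neuron markers, 11 fell, and their summed level was 25.3 to 58.9 TPM in Cre-positive libraries against 165 to 351 TPM in Cre-negative libraries. Of 12 goblet cell markers 4 rose, with sums of 18974 to 31679 TPM in Cre-positive and 11873 to 16274 TPM in Cre-negative libraries. All 11 B and plasma cell markers had a log2 fold change below 0 (median -1.53), and 2 of them passed. Their sums were 626 to 3368 TPM in Cre-positive and 2474 to 5557 TPM in Cre-negative libraries. Of 15 small intestinal epithelium markers, 8 were tested and 1 rose. The 15 summed to 403 to 809 TPM in Cre-positive and 485 to 598 TPM in Cre-negative libraries. No colonocyte or smooth muscle marker passed. Colonocyte markers were present in both groups, with sums of 25189 to 41246 TPM in Cre-positive and 28260 to 37706 TPM in Cre-negative libraries; 14 of 22 had a log2 fold change above 0, with a median of 0.17. The other 8 colonocyte markers were below 0. Car1, a colonocyte marker named after its values were seen, did not pass either. It was at 2913 ± 978 TPM in Cre-positive and 1222 ± 436 TPM in Cre-negative libraries (SD, n = 7 and 5, as for all means below).

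Sulfotransferases held the largest change among the enzymes. Sult1a1, the main phenol sulfotransferase, fell 3.54-fold by mean TPM in Cre-positive colon, and Sult4a1, a sulfotransferase of neurons, fell 14.0-fold. Gsta1, an alpha class glutathione transferase, rose 2.49-fold, and the P450 pseudogene Cyp2d37-ps rose 1.61-fold. No other member passed an adjusted p under 0.05 in limma, and the summed level of all 162 members was 3584 to 6964 TPM in Cre-positive libraries against 4246 to 5333 TPM in Cre-negative libraries.

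Of the 162 members, 76 reached the minimum for testing (0.5 TPM in at least 5 libraries) and 86 did not, 14 of which are listed at 0 in all libraries. The 4 members that passed are 5.26% of those tested, against 1.43% of all 16164 genes tested. The 2 higher members stand beside 0.421% of all genes called higher, and the 2 lower ones beside 1.01% called lower. At an unadjusted p under 0.05 there were 13 members, against 11.8% of all genes. The log2 fold change, taken as Cre-positive minus Cre-negative on log2(TPM + 0.5), was above 0 for 48 tested members and below 0 for 28, with a median of 0.06 against 0.03 over all genes. Of all genes tested, 55.7% had a log2 fold change above 0. The libraries of the groups did not overlap for the same 4 members, with 2 above and 2 below, where 2.88% of all tested genes had groups apart (1.33% with Cre-positive above, 1.55% with Cre-positive below).

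**Figure D1:**
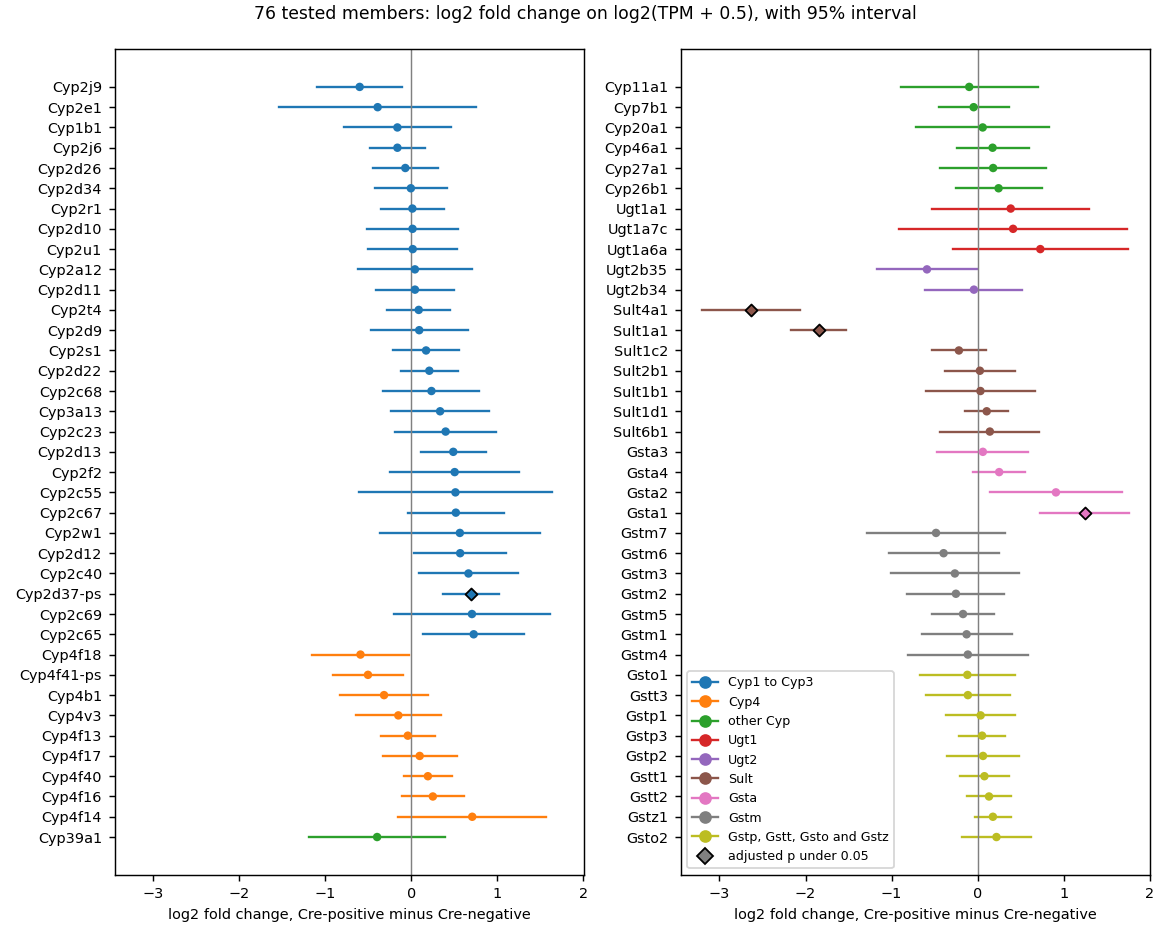
Log2 fold change (x axis, Cre-positive minus Cre-negative on log2(TPM + 0.5)) of the 76 tested members, coloured by family, with the 95% interval from limma as a line. Diamonds mark the 4 members with an adjusted p under 0.05; Sult4a1 and Sult1a1 lie far to the left of all others, and Gsta1 lies farthest to the right.

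The enzymes differed widely in level. A mean over all libraries of at least 100 TPM was reached by 12 members, 36 lay between 10 and 100 TPM, 18 between 1 and 10 TPM and 25 between 0.1 and 1 TPM, and 57 were above 0 but under 0.1 TPM. Some P450s known from liver were nearly silent. Cyp1a1 was at 0.0886 ± 0.103 TPM in Cre-positive and 0.137 ± 0.0965 TPM in Cre-negative libraries. Cyp1a2, Cyp2b10, Cyp3a11 and Cyp2c29 had 0, 6, 6 and 1 recovered reads over all Cre-positive libraries, against 2, 5, 1 and 1 over all Cre-negative libraries. Cyp2e1, also known from liver, reached the minimum for testing. It had 1 to 36 recovered reads per Cre-positive library and 3 to 73 per Cre-negative library.

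**Figure D2:**
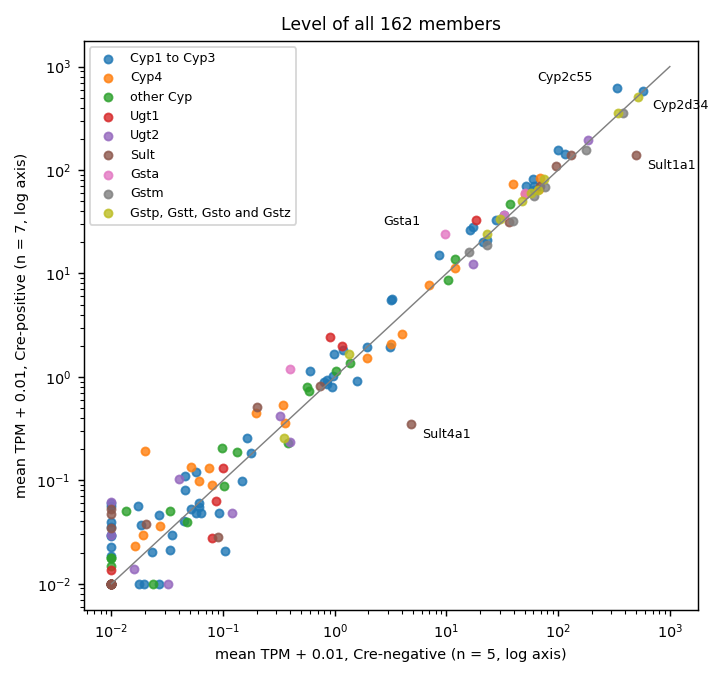
Mean TPM + 0.01 of each of the 162 members in Cre-positive libraries (y axis, n = 7) against Cre-negative libraries (x axis, n = 5), both on log axes, coloured by family. The line marks equal levels; Sult1a1 (141 against 498 TPM) and Sult4a1 (0.342 against 4.81 TPM) lie below it, and Gsta1 (23.9 against 9.59 TPM) lies above it.

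Sult1a1 attaches sulfate to small phenols, among them drugs and products of gut bacteria (gene ID 20887, chromosome 7, 126672865 to 126690443 in GRCm38.p6, protein coding). It was at 119.8, 149.6, 210.0, 105.4, 123.1, 144.2 and 131.4 TPM in Cre-positive 1 to 7, against 543.0, 475.5, 549.5, 468.7 and 451.7 TPM in Cre-negative 1 to 5. The highest Cre-positive library lay below the lowest Cre-negative one by more than the whole spread of either group. The log2 fold change was -1.85 (95% interval -2.17 to -1.53, adjusted p = 2.93e-05 in limma), lower in 7 of 7 Cre-positive libraries than the Cre-negative mean. Between 1273 and 3603 recovered reads per Cre-positive library and between 6421 and 9876 per Cre-negative library stood behind these values. Fewer cells that carry the transcript and less transcript per cell cannot be told apart in these bulk samples, and the part of the neuron, goblet and plasma cell markers in the change was not tested. The 10 nearest tested genes on chromosome 7 had a median log2 fold change of 0.00, and none of them passed.

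Sult1a1 made up a median of 29.5% of the summed Sult level in Cre-positive libraries and 59.0% in Cre-negative libraries. Without it, the other Sult genes summed to a median of 335 TPM in Cre-positive and 331 TPM in Cre-negative libraries. The summed level of all Sult genes was 406 to 577 TPM in Cre-positive against 790 to 877 TPM in Cre-negative libraries, so the groups did not overlap in the sum, as the plot of family sums shows.

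**Figure D3:**
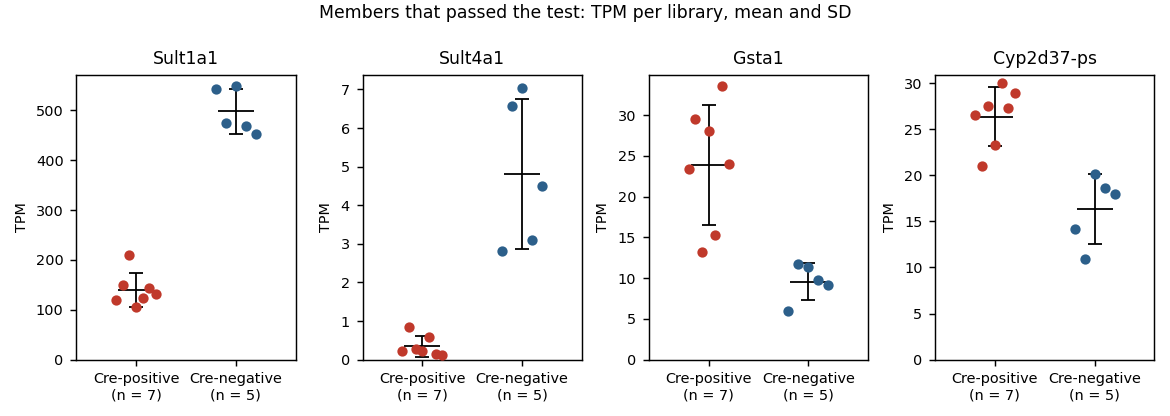
TPM (y axis, from 0) of the 4 members that passed, with 1 point per library and the mean and SD as bars, Cre-positive (n = 7) left and Cre-negative (n = 5) right. In each panel the groups do not overlap; for Cyp2d37-ps the lowest Cre-positive library (21.0 TPM) lies close to the highest Cre-negative one (20.1 TPM).

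The promoter of Sult1a1 is shown because this gene had the smallest adjusted p of the module. The RefSeq window covers 250 bases before to 50 after a start and lies inside the annotated gene interval, at chr7:126676369-126676668 in GRCm38.p6, minus strand. Capitals mark the letters GTTAAT, part of the site for HNF1, a factor of gut and liver epithelium. All motifs here were searched on both strands.

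Sult1a1: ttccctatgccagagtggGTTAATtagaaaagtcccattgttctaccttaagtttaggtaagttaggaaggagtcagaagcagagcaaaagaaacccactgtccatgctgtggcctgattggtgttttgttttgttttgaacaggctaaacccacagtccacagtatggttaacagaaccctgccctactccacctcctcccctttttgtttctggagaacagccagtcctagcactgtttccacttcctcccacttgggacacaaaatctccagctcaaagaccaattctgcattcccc

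The letters GTTAAT occur in 7.10% of all 32851 promoter windows of this length and in 16.0% of the 150 windows found for 129 members. No core of the aryl hydrocarbon receptor element (GCGTG) or of the antioxidant response element (TGACNNNGC) is in this window.

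Sult4a1 has no established substrate and is known from neurons of the brain (gene ID 29859, chromosome 15, 84076097 to 84105754). It ran from 0.118 to 0.836 TPM with a median of 0.219 TPM in Cre-positive libraries, against 2.82, 6.58, 7.04, 3.11 and 4.50 TPM in Cre-negative 1 to 5. Every Cre-positive library was below 1 TPM and below every Cre-negative one. This is a log2 fold change of -2.63 (95% interval -3.20 to -2.06, adjusted p = 0.000228 in limma). Few reads carried it, 4 to 24 in Cre-positive and 58 to 220 in Cre-negative libraries, and the added constant of 0.5 TPM makes the fold change smaller than the ratio of the means. The enteric neuron markers, given above, moved the same way, and their part in this change was not tested.

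The other tested sulfotransferases did not pass. Sult1d1, which sulfates catecholamines, was at 140 ± 23.1 TPM in Cre-positive and 129 ± 9.16 TPM in Cre-negative libraries (log2 fold change 0.11, 95% interval -0.14 to 0.35). Sult1b1, which acts on thyroid hormone and phenols, was at 108 ± 50.8 TPM in Cre-positive and 96.0 ± 10.3 TPM in Cre-negative libraries, with its 3 highest values in Cre-positive 4, 5 and 7. The cholesterol sulfotransferase Sult2b1 was at 69.9 ± 16.1 TPM in Cre-positive and 68.6 ± 15.6 TPM in Cre-negative libraries. Sult1c2 had 31.4 ± 6.17 TPM in Cre-positive and 36.4 ± 5.55 TPM in Cre-negative libraries, and Sult6b1 had 0.809 ± 0.347 TPM in Cre-positive and 0.726 ± 0.444 TPM in Cre-negative libraries. Of the 14 Sult genes not tested, 8 are listed at 0 everywhere, 7 of them in the Sult2 group, whose members in liver sulfate steroids and bile acids. The estrogen sulfotransferase Sult1e1 had 2 reads in all Cre-positive and 5 in all Cre-negative libraries, and Sult5a1 was at 0.507 ± 0.461 TPM in Cre-positive and 0.190 ± 0.0642 TPM in Cre-negative libraries, highest in Cre-positive 1 at 1.45 TPM.

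**Figure D4:**
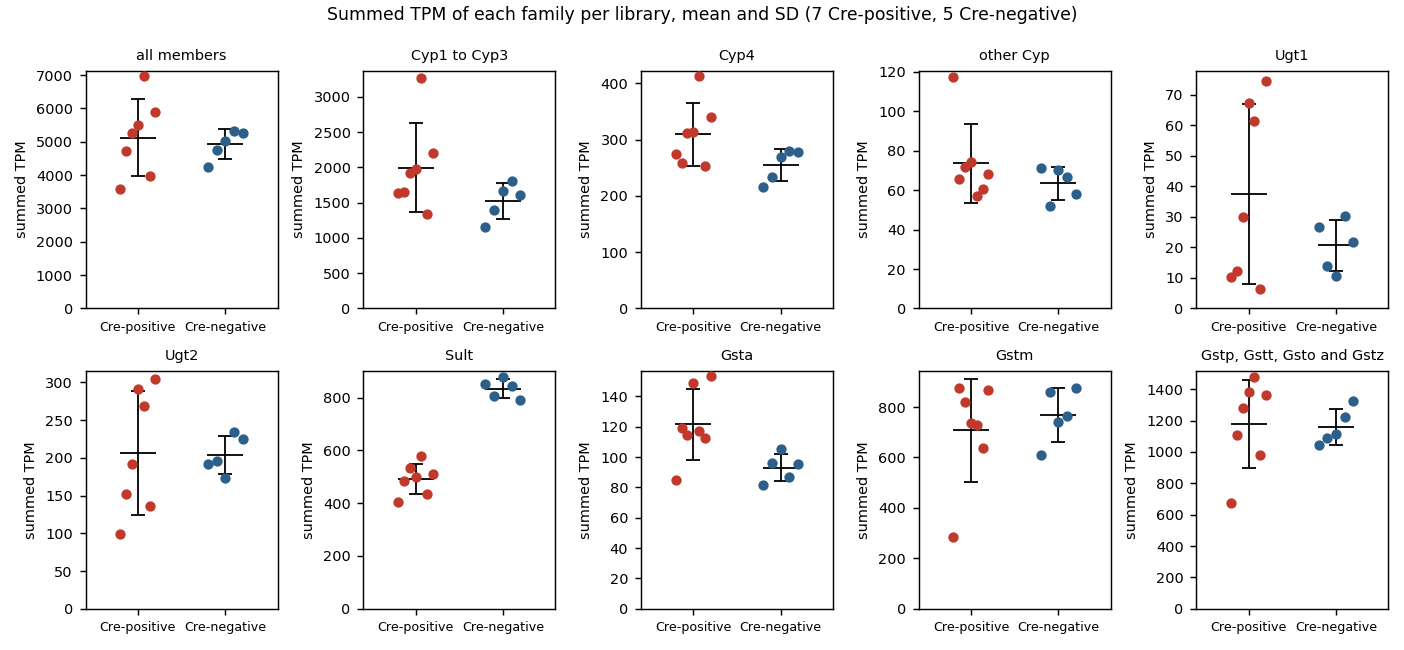
Summed TPM (y axis, from 0) of all members and of each family per library, 1 point per library, with mean and SD as bars, Cre-positive (n = 7) left and Cre-negative (n = 5) right. The Sult sums stand apart (406 to 577 against 790 to 877 TPM), while the Ugt1 sums of Cre-positive libraries spread from 6.46 to 74.6 TPM around the Cre-negative range of 10.5 to 30.5 TPM.

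Among the glutathione transferases the alpha class rose in 1 of 4 members. Gsta1 (gene ID 14857, chromosome 9, 78230669 to 78242683) detoxifies electrophiles and organic peroxides. It was at 23.4, 29.6, 13.3, 28.0, 15.3, 33.6 and 24.0 TPM in Cre-positive 1 to 7, against 5.92, 11.7, 11.3, 9.80 and 9.20 TPM in Cre-negative 1 to 5. The lowest Cre-positive values, in libraries 3 and 5, lay just above the highest Cre-negative ones. The log2 fold change was 1.24 (95% interval 0.73 to 1.76, adjusted p = 0.0177 in limma), higher in 7 of 7 Cre-positive libraries than the Cre-negative mean. The call was lost under 5 of 27 alternatives, among them quantile scaling (adjusted p = 0.052), leaving out Cre-negative 5 (0.053), voom on recovered reads (0.059) and leaving out the shallowest library of each group (0.067). The goblet cell marker sums, given above, did not overlap between the groups either, and their part was not tested.

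Gsta2, the closest relative of Gsta1, lies on the same stretch of chromosome 9 and was low. It ran from 0.163 to 2.14 TPM with a median of 0.934 TPM in Cre-positive libraries, against 1.22, 0.262, 0.178, 0.186 and 0.0965 TPM in Cre-negative 1 to 5. Few reads stood behind these values, 2 to 26 per Cre-positive library and 1 to 9 per Cre-negative library. Cre-positive 6 was low and Cre-negative 1 was high, so the groups overlapped, and the log2 fold change of 0.91 did not pass (95% interval 0.14 to 1.68, adjusted p = 0.309). With a weight per library, where 6.76% of all genes were called, Gsta2 passed (log2 fold change 1.31, adjusted p = 0.0257). The predicted genes Gm3776 and Gm10639 are next to Gsta1, and their log2 fold changes of 0.84 (adjusted p = 0.054) and 1.34 (adjusted p = 0.082) did not pass either; they are no members, and were named after their values were seen. Near-identical copies can share reads, so the levels of Gsta1 and Gsta2 are uncertain to the extent that the authors' counting split them. Gsta4, which clears aldehydes of lipid peroxidation, had 60.1 ± 9.74 TPM in Cre-positive and 50.4 ± 8.27 TPM in Cre-negative libraries (adjusted p = 0.542). Gsta3 had 36.4 ± 13.4 TPM in Cre-positive and 32.7 ± 2.41 TPM in Cre-negative libraries.

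The promoter windows of Gsta1 (chr9:78230419-78230718, plus strand) and Gsta2 (chr9:78347096-78347395, minus strand) in GRCm38.p6 are shown because these neighbouring copies had the highest positive log2 fold changes of the module. Capitals mark GCGTG, the core of the element bound by the aryl hydrocarbon receptor, and in Gsta2 also TTTATA, which is TATAAA on the other strand.

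Gsta1: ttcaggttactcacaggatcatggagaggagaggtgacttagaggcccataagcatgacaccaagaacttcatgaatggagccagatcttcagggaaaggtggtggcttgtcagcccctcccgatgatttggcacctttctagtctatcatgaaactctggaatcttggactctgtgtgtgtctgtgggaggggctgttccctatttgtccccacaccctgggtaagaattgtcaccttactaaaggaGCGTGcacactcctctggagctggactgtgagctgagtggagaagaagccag

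Gsta2: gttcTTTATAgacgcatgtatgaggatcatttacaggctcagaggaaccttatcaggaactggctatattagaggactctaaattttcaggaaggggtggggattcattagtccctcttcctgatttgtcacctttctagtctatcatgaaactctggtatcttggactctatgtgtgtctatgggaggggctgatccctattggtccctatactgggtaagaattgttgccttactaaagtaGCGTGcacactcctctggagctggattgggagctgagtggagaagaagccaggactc

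Both windows hold 1 copy of GCGTG near the start, in a stretch they share. These 5 letters are frequent: 32.4% of all promoter windows and 19.3% of the member windows hold them on either strand. Among the 77 windows of tested members the share is 27.3%. The antioxidant core TGACNNNGC, by which alpha class genes are classically induced, is in neither window. The windows reach only 250 bases before the start, so a copy farther upstream would not be seen. It stands in 6.67% of member windows and 9.09% of the windows of tested members, against 12.4% of all.

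The mu class did not pass in any of its 7 members. All 7 had a log2 fold change below 0, with a median of -0.25, where 55.7% of all tested genes lay above 0. All 7 were lowest in Cre-positive 1, where their sum was 284 TPM, against 639 to 877 TPM in the other Cre-positive libraries and 608 to 874 TPM in Cre-negative libraries. That library was also lowest for 36.6% of all tested genes. The 7 signs share this low library and are not independent of each other. Without Cre-positive 1, the median was -0.04 and 4 of 7 were below 0; with a weight per library 5 of 7 were below 0, and under both other scalings all 7 were. Gstm1, the most abundant, was at 359 ± 107 TPM in Cre-positive and 377 ± 64.8 TPM in Cre-negative libraries. Gstm2 had 157 ± 49.1 TPM in Cre-positive and 177 ± 27.0 TPM in Cre-negative libraries, and Gstm5 had 68.6 ± 14.5 TPM in Cre-positive and 75.8 ± 9.07 TPM in Cre-negative libraries. The most negative was Gstm7 (log2 fold change -0.48, adjusted p = 0.697), at 4.15 TPM in Cre-positive 1, 12.3 to 28.7 TPM in the other Cre-positive libraries and 21.8 to 24.2 TPM in Cre-negative libraries. Gstm3 and Gstm6 had the same low library, at 13.9 and 9.52 TPM, with Cre-positive medians of 61.4 and 35.3 TPM and Cre-negative medians of 64.8 and 40.4 TPM. With the mitochondrial share as a covariate, where 4.29% of all genes were called, all 7 remained below 0 (median -0.25) and Gstm7 passed (adjusted p = 0.0213). The part of the shallow depth of Cre-positive 1 in this was not tested.

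The other glutathione transferase classes were among the most abundant members and did not pass. Gsto1, which reduces dehydroascorbate, was at 506 ± 170 TPM in Cre-positive and 516 ± 49.4 TPM in Cre-negative libraries. Gstp1 was at 357 ± 85.0 TPM in Cre-positive and 342 ± 53.1 TPM in Cre-negative libraries, with the caution that Gstp1, Gstp2 and Gstp3 are close copies between which reads can be split. Gstt2 had 82.3 ± 12.4 TPM in Cre-positive and 74.8 ± 9.55 TPM in Cre-negative libraries, and Gstt3 had 64.3 ± 21.2 TPM in Cre-positive and 66.6 ± 10.0 TPM in Cre-negative libraries. Gstz1, an isomerase of tyrosine breakdown, was at 34.0 ± 2.46 TPM in Cre-positive and 30.0 ± 3.42 TPM in Cre-negative libraries (log2 fold change 0.18, 95% interval -0.03 to 0.38, adjusted p = 0.512). Gsto2 had 1.64 ± 0.493 TPM in Cre-positive and 1.33 ± 0.343 TPM in Cre-negative libraries, and Gstt4, not tested, had means of 0.244 TPM in Cre-positive and 0.340 TPM in Cre-negative libraries.

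P450s of families Cyp1 to Cyp3 had 28 of 63 members tested, of which 1 rose and none fell. The member that rose, Cyp2d37-ps (gene ID 627860, chromosome 15, 82688750 to 82690058), is annotated as a transcribed pseudogene within the Cyp2d cluster. It ran from 21.0 to 30.0 TPM with a median of 27.3 TPM in Cre-positive libraries, against 14.2, 10.9, 20.1, 18.6 and 18.0 TPM in Cre-negative 1 to 5. All Cre-positive libraries were above all Cre-negative ones, by a narrow gap. Its log2 fold change was 0.70 (95% interval 0.37 to 1.02, adjusted p = 0.0387 in limma). The call was lost under 13 of 27 alternatives, among them quantile scaling (0.062), voom (0.083), leaving out the shallowest library of each group (0.114), and leaving out any 1 of Cre-positive 3 to 7 or of Cre-negative 1, 2, 4 and 5, with adjusted p up to 0.111 for these 9. Reads of near-identical Cyp2d genes can be split between them, which makes its level uncertain.

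In the Cyp2d group, 7 of 9 tested members, the pseudogene among them, had log2 fold changes above 0, with a median of 0.09. Without Cre-negative 1 this was 4 of 9 with a median of -0.02, and without the shallowest library of each group 4 of 9 with a median of -0.03. Cyp2d34, at 584 ± 160 TPM in Cre-positive and 573 ± 95.1 TPM in Cre-negative libraries, was the most abundant by Cre-negative level of all members, with a 95% interval of the log2 difference from -0.42 to 0.41. Cyp2d12 was at 155 ± 56.4 TPM in Cre-positive and 101 ± 23.7 TPM in Cre-negative libraries (log2 fold change 0.57, adjusted p = 0.375). Cyp2d13 was at 81.7 ± 14.7 TPM in Cre-positive and 58.9 ± 14.6 TPM in Cre-negative libraries (log2 fold change 0.49, adjusted p = 0.254). The groups overlapped for both, and neither passed.

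The Cyp2c genes, which in the gut oxidise polyunsaturated fatty acids as well as drugs, had a log2 fold change above 0 in 7 of 7 tested members. This compares with 55.7% of all tested genes. The median of the 7 was 0.52, and none passed. Their sign held in every alternative run, but the alternatives refit the same libraries and are not independent of each other. Nor are the 7 members, which include close copies, independent of each other. With a weight per library, where 6.76% of all genes were called, Cyp2c65 passed (adjusted p = 0.0462). As for Cyp2d, reads of close copies can be split between them, which makes levels of single members uncertain. Cyp2c55, the most abundant of the group, was at 128, 409, 377, 664, 1623, 218 and 952 TPM in Cre-positive 1 to 7, against 204, 349, 309, 472 and 340 TPM in Cre-negative 1 to 5. Cre-positive 5, 7 and 4 exceeded every Cre-negative library, Cre-positive 1 lay below every one, and the log2 fold change was 0.51 (95% interval -0.61 to 1.63, adjusted p = 0.803). Cyp2c68 was at 143 ± 57.2 TPM in Cre-positive and 114 ± 19.1 TPM in Cre-negative libraries. Cyp2c65 had 5.59 ± 1.89 TPM in Cre-positive and 3.25 ± 1.43 TPM in Cre-negative libraries (log2 fold change 0.73, adjusted p = 0.283). Of the 9 Cyp2c members not tested, Cyp2c70, a bile acid hydroxylase of mouse liver, had 0.245 TPM in Cre-positive and 0.152 TPM in Cre-negative libraries on average.

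The promoter windows of Cyp2c65 (chr19:39060756-39061055, plus strand) and Cyp2c68 (chr19:39741052-39741351, minus strand) in GRCm38.p6 are shown because they carry the letters CAAAGTCCA, a core of the site for HNF4, a receptor of gut and liver epithelium. Capitals mark CAAAGTCCA in both, TATAAA and the antioxidant core on the other strand (GCACAGTCA) in Cyp2c65, and GTTAAT and GCGTG on the other strand (ATTAAC and CACGC) in Cyp2c68. No marked motifs overlap.

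Cyp2c65: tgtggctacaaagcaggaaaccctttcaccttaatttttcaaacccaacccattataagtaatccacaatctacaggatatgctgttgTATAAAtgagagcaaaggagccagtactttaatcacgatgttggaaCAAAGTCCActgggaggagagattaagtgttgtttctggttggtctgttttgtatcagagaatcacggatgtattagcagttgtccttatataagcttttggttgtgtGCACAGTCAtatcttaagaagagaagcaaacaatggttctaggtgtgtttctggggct

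Cyp2c68: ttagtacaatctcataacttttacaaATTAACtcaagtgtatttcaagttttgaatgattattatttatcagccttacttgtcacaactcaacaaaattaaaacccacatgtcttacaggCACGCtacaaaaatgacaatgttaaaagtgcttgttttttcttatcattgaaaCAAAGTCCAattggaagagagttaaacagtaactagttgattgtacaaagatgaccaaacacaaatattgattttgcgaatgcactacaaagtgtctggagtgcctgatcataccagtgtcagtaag

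CAAAGTCCA was in 12 of the 150 member windows (8.0%), against 0.475% of all promoter windows. The 12 belong to Cyp2c40, Cyp2c65, Cyp2c67, Cyp2c68, Cyp2c69, Cyp2c70, Cyp3a11, Cyp3a16, Cyp3a41a, Cyp3a41b, Cyp8b1 and Sult1b1. Most of these sit in clusters of copied genes with similar promoters, so they are not independent. Hnf4a itself was at 298 ± 37.5 TPM in Cre-positive and 306 ± 25.1 TPM in Cre-negative libraries (adjusted p = 0.946). TATAAA was in 32.0% of member windows against 13.6% of all windows. Among the 77 windows of tested members it was in 22.1%.

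Other P450s of families Cyp1 to Cyp3 included Cyp2s1 at 69.9 ± 17.7 TPM in Cre-positive and 60.8 ± 8.76 TPM in Cre-negative libraries, and Cyp3a13, the only tested Cyp3a gene of 9, at 69.6 ± 29.4 TPM in Cre-positive and 51.7 ± 10.4 TPM in Cre-negative libraries. Cyp2f2, which activates naphthalene in mouse lung, was at 28.3 ± 14.8 TPM in Cre-positive and 17.4 ± 2.57 TPM in Cre-negative libraries, and passed only with a weight per library (adjusted p = 0.0334). Cyp2j9 had the most negative log2 fold change of these families, -0.60, at 1.96 ± 0.708 TPM in Cre-positive and 3.11 ± 0.560 TPM in Cre-negative libraries (adjusted p = 0.292). Cyp2a5, not tested, averaged 0.173 TPM in Cre-positive and 0.169 TPM in Cre-negative libraries.

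Cyp4 enzymes hydroxylate the far end of fatty acids and of leukotrienes, and none of the 9 tested of 21 passed. Cyp4f16 was at 83.8 ± 19.4 TPM in Cre-positive and 68.9 ± 7.75 TPM in Cre-negative libraries, Cyp4f13 at 66.0 ± 14.5 TPM in Cre-positive and 67.1 ± 8.60 TPM in Cre-negative libraries, and Cyp4f40 at 58.5 ± 10.4 TPM in Cre-positive and 50.5 ± 2.93 TPM in Cre-negative libraries. Cyp4f14, which acts on leukotriene B4 and vitamin E, was at 25.9, 55.7, 56.6, 87.8, 152, 31.7 and 108 TPM in Cre-positive 1 to 7, against 24.6, 32.6, 35.6, 55.2 and 50.8 TPM in Cre-negative 1 to 5. Its 3 highest libraries were again Cre-positive 5, 7 and 4, and the log2 fold change of 0.71 did not pass (95% interval -0.15 to 1.57, adjusted p = 0.549); it passed with a weight per library and with the epithelial score as a covariate, where 3.47% of all genes were called. Cyp4f18, a leukotriene B4 hydroxylase of mouse neutrophils, had 2.57 ± 1.15 TPM in Cre-positive and 4.00 ± 1.31 TPM in Cre-negative libraries (log2 fold change -0.59, adjusted p = 0.389). The pseudogene Cyp4f41-ps had 2.09 ± 0.530 TPM in Cre-positive and 3.15 ± 0.787 TPM in Cre-negative libraries (log2 fold change -0.50, adjusted p = 0.278); it passed only with a weight per library (0.0462). None of the 8 Cyp4a genes, targets of peroxisome proliferators in liver, was tested. Among the untested Cyp4 genes, Cyp4f39 averaged 0.530 TPM in Cre-positive and 0.332 TPM in Cre-negative libraries, and Cyp4x1 averaged 0.347 TPM in Cre-positive and 0.351 TPM in Cre-negative libraries.

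Among the P450s of sterols, steroids, retinoids and vitamin D, 7 of 18 were tested and none passed. Sterol hydroxylase Cyp27a1 was at 46.5 ± 25.6 TPM in Cre-positive and 37.3 ± 5.70 TPM in Cre-negative libraries, with Cre-positive 1 far above the rest at 101 TPM. Cyp20a1, without a settled substrate, had 13.6 ± 7.01 TPM in Cre-positive and 11.8 ± 3.08 TPM in Cre-negative libraries. The oxysterol hydroxylases Cyp39a1 and Cyp7b1 had 8.64 ± 4.75 and 1.34 ± 0.459 TPM in Cre-positive libraries, against 10.3 ± 2.81 and 1.35 ± 0.131 TPM in Cre-negative libraries. Cyp46a1, a cholesterol hydroxylase known from neurons of the brain, was at 0.719 ± 0.281 TPM in Cre-positive and 0.575 ± 0.214 TPM in Cre-negative libraries (log2 fold change 0.17, 95% interval -0.24 to 0.59, adjusted p = 0.832). The retinoic acid hydroxylase Cyp26b1 had 0.793 ± 0.494 TPM in Cre-positive and 0.556 ± 0.212 TPM in Cre-negative libraries. Cyp26a1 and the vitamin D enzyme Cyp27b1 were too low to test, at means of 0.179 and 0.221 TPM in Cre-positive and 0.122 and 0.371 TPM in Cre-negative libraries.

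Glucuronosyltransferases of family 1 share their last exons at a single locus on chromosome 1, so reads can be split between them and levels of single members are uncertain. None of the 3 tested of 8 passed. Ugt1a7c, the most abundant, was at 9.28, 9.92, 26.3, 60.4, 53.2, 5.57 and 65.5 TPM in Cre-positive 1 to 7, against 23.8, 12.6, 8.40, 27.4 and 19.7 TPM in Cre-negative 1 to 5. Cre-positive 4, 5 and 7 were above every Cre-negative library, while the lowest value of all was in Cre-positive 6. This gave a log2 fold change of 0.41 with a 95% interval from -0.91 to 1.74 (adjusted p = 0.893). Ugt1a6a, which conjugates flat phenols, ran from 0.296 to 5.13 TPM with a median of 1.67 TPM in Cre-positive libraries, against 1.09, 0.633, 0.669, 1.28 and 0.850 TPM in Cre-negative 1 to 5. Its 3 highest values were in Cre-positive 5, 7 and 4, and it passed only with a weight per library. Ugt1a1, the enzyme of bilirubin, had 1.98 ± 1.49 TPM in Cre-positive and 1.15 ± 0.454 TPM in Cre-negative libraries. The highest untested members were Ugt1a6b and Ugt1a5, with means of 0.122 and 0.0534 TPM in Cre-positive and 0.0891 and 0.0763 TPM in Cre-negative libraries.

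In family 2, Ugt2b34 carried most of the level, at 193 ± 77.2 TPM in Cre-positive and 186 ± 24.2 TPM in Cre-negative libraries (log2 fold change -0.04, 95% interval -0.61 to 0.52). Ugt2b35 was at 4.72, 9.44, 13.7, 16.2, 14.6, 8.97 and 18.5 TPM in Cre-positive 1 to 7, against 18.7, 14.9, 16.8, 18.2 and 18.6 TPM in Cre-negative 1 to 5. Cre-positive 1, 6 and 2 were lowest and the groups overlapped, with a log2 fold change of -0.59 (adjusted p = 0.413) that passed with the epithelial score or the mitochondrial share as a covariate. The untested members Ugt2b1 and Ugt2b36 averaged 0.407 and 0.226 TPM in Cre-positive and 0.310 and 0.388 TPM in Cre-negative libraries.

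Differences between libraries of the Cre-positive group ran through several families at once. Of the 76 tested members, 19 were highest in Cre-positive 5 (25.0%, against 8.69% of all tested genes) and 28 were lowest in Cre-positive 1 (36.8%, against 36.6% of all tested genes). Cre-positive 7 was highest for 17.1% of members against 12.8% of all tested genes, and Cre-positive 4 for 3.95% against 12.8%. Cre-positive 4, 5 and 7 had the 3 highest values of Cyp2c55, Cyp4f14, Ugt1a7c, Ugt1a6a, Ugt1a1 and Sult1b1, which were picked out after their values were seen. In the same 3 libraries the efflux and uptake transporters summed to 893, 958 and 1030 TPM, against 468 to 575 TPM in the other Cre-positive and 426 to 586 TPM in the Cre-negative libraries. Other phase 1 enzymes summed to 6006 to 6498 TPM there, against at most 5279 TPM in the remaining libraries. Genes of cofactor supply summed to 3153 to 3301 TPM there, against at most 3012 TPM. Small intestinal epithelium markers summed to 715 to 809 TPM there, against at most 712 TPM. Sums of sensors, of electron and heme supply and of other conjugating enzymes did not stand apart in this way. Colonocyte markers summed to 39387 to 41246 TPM there, against 25189 to 36084 TPM in the other Cre-positive and 28260 to 37706 TPM in the Cre-negative libraries, and the mitochondrial share of reads was 3.56 to 4.50%. Enteric glia markers summed to 80.2 to 104 TPM there, against 29.1 to 61.0 TPM in the other Cre-positive and 42.0 to 55.8 TPM in the Cre-negative libraries. Between the whole groups, however, 7 of the 9 glia markers had a log2 fold change below 0, with a median of -0.57. The glia sum therefore need not follow most of these markers. Fibroblast markers summed to 517 to 730 TPM there, against 948 to 1573 TPM in the other Cre-positive and 657 to 1085 TPM in the Cre-negative libraries. Smooth muscle markers summed to 10039 to 12066 TPM there, and to 8642 to 13308 TPM in the Cre-negative libraries. Their highest sums were in Cre-positive 6 (27325 TPM) and Cre-positive 2 (19396 TPM), while Cre-positive 1 and 3 had 8536 and 11204 TPM. The part of these in the pattern was not tested, and the labels give no batch.

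**Figure D5:**
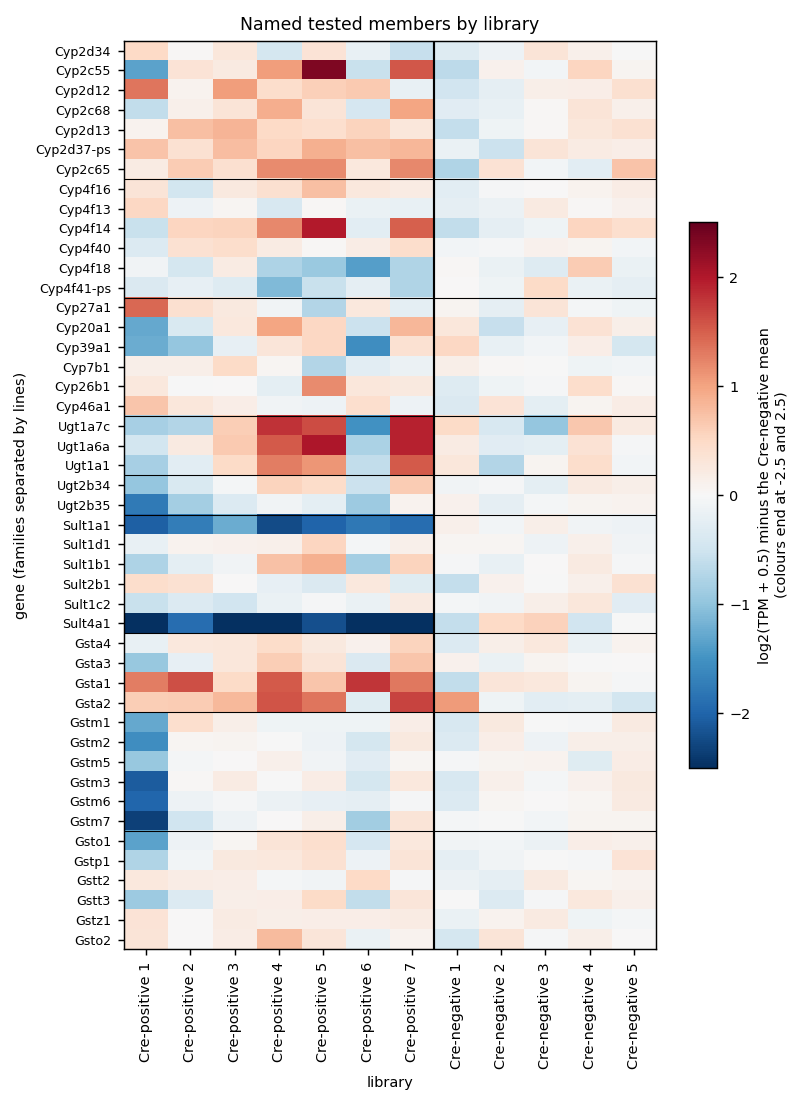
Log2(TPM + 0.5) minus the Cre-negative mean (colour, ending at -2.5 and 2.5) for the tested members named by rule, by library, with the 7 Cre-positive libraries left of the line and the 5 Cre-negative libraries right of it. Sult1a1 and Sult4a1 are blue across all 7 Cre-positive libraries, the Gstm genes are blue in Cre-positive 1, and Cyp2c55, Cyp4f14 and the Ugt1 genes are red in Cre-positive 4, 5 and 7.

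The standard deviation of log2 values was larger in the Cre-positive than in the Cre-negative group for 63 of 76 members (82.9%), against 83.5% of all genes tested. Without Cre-positive 1 the shares were 68.4% of members and 74.4% of all genes.

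Other genes of the pathway were taken from 6 lists of 148 genes, of which 132 were tested, 1 rose and 1 fell. These are 1.52% of those tested, near the 1.43% of all genes called. Nr1i3, the constitutive androstane receptor that senses drugs, rose: it ran from 7.28 to 15.5 TPM with a median of 11.0 TPM in Cre-positive libraries, against 3.77, 3.54, 4.85, 6.19 and 7.70 TPM in Cre-negative 1 to 5. Cre-positive 2 lay within the Cre-negative range, and all other Cre-positive libraries were above it. Nr1i3 thus had a log2 fold change of 0.98 (95% interval 0.52 to 1.45, adjusted p = 0.0389 in limma). Ppard, a fatty acid receptor, fell: it ran from 41.1 to 60.2 TPM with a median of 48.8 TPM in Cre-positive libraries, against 65.0, 73.0, 64.9, 88.7 and 90.3 TPM in Cre-negative 1 to 5. The groups did not overlap, and the log2 fold change was -0.61 (95% interval -0.88 to -0.35, adjusted p = 0.0237 in limma). The Nr1i3 call was lost under 13 of 27 alternatives, among them both other scalings and 8 of 12 single libraries left out (adjusted p up to 0.137 for these). The Ppard call was lost under 5 of 27, among them leaving out any 1 of Cre-positive 6 and Cre-negative 2, 4 and 5 (adjusted p up to 0.081 for these).

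Of the 25 sensors and receptors tested, no other passed: Ahr, the aryl hydrocarbon receptor, was at 7.79 ± 1.49 TPM in Cre-positive and 7.49 ± 0.621 TPM in Cre-negative libraries, and Nr1i2, the pregnane receptor, was at 85.0 ± 9.92 TPM in Cre-positive and 79.9 ± 6.68 TPM in Cre-negative libraries. No gene of the other 5 lists passed. Por, which passes electrons to P450s and is among 11 genes of electron and heme supply tested, was at 77.6 ± 29.6 TPM in Cre-positive and 62.5 ± 20.2 TPM in Cre-negative libraries (adjusted p = 0.797), and Cyb5r3 was at 161 ± 24.1 TPM in Cre-positive and 139 ± 11.7 TPM in Cre-negative libraries. Among 41 other phase 1 enzymes tested, the flavin monooxygenase Fmo4 had 13.0 ± 3.34 TPM in Cre-positive and 6.65 ± 1.70 TPM in Cre-negative libraries (log2 fold change 0.92, adjusted p = 0.056). The carboxylesterase Ces2b had 11.5 ± 5.88 TPM in Cre-positive and 4.14 ± 1.01 TPM in Cre-negative libraries (log2 fold change 1.26, adjusted p = 0.062). For both, every Cre-positive library was above every Cre-negative one, although neither passed.

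Of 15 other conjugating enzymes tested, the methyltransferase Inmt had 0.550 ± 0.335 TPM in Cre-positive and 1.65 ± 0.769 TPM in Cre-negative libraries (log2 fold change -1.04, adjusted p = 0.075), and the microsomal glutathione transferase Mgst3 had 1493 ± 237 TPM in Cre-positive and 1030 ± 231 TPM in Cre-negative libraries (adjusted p = 0.184). Among 21 genes of cofactor supply, Ggt1, which breaks down glutathione outside cells, had 5.59 ± 3.27 TPM in Cre-positive and 1.65 ± 0.674 TPM in Cre-negative libraries (adjusted p = 0.104), and the peroxidase Gpx2 had 302 ± 204 TPM in Cre-positive and 449 ± 138 TPM in Cre-negative libraries. Of 19 transporters tested, 16 had a log2 fold change above 0, with a median of 0.25, against 55.7% of all genes above 0. The transporter sums were highest in Cre-positive 4, 5 and 7, as given above. Abcc1, which exports glutathione conjugates, was at 16.7 ± 1.90 TPM in Cre-positive and 12.7 ± 0.459 TPM in Cre-negative libraries (log2 fold change 0.38, adjusted p = 0.106) with no overlap between the groups, and Abcc3 was at 71.3 ± 16.3 TPM in Cre-positive and 56.4 ± 5.69 TPM in Cre-negative libraries (adjusted p = 0.425).

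In the authors' deposited table, made with edgeR, 3 members stood at a false discovery rate under 0.05, which were Sult1a1, Sult4a1 and Gsta1, where 1.13% of its 27179 genes were under that limit. The authors' deposited table gave the same sign of the log2 fold change as here for 71 of the 76 tested members.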

How the data were processed

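Per the labels' protocols, RNA taken up in Trizol was selected for polyA tails and made into strand-specific libraries. The submitters' processing notes name bcl2fastq 2.17, HISAT, featureCounts and mm10; the use of strand in counting is not given in the sources used here. The authors deposited TPM per gene, and the 12 per-sample files equal the series table. The authors' deposited edgeR results give log2 fold change, log2 CPM, a score (F), p-value and false discovery rate.

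A gene was tested where 5 or more libraries had 0.5 TPM or more (16164 genes). Values were log2(TPM + 0.5), on which the fold change of low genes is understated, and were fitted in limma 3.58.1 (R 4.3.3, eBayes with trend, two-sided), with Benjamini-Hochberg adjustment over all genes tested. No count model was used, the unit being TPM. Whole reads were recovered for 22840 of 22842 genes above 0 (99.99% of values within 0.05 read). The fit was tested on simulated data. Tables and figures used Python 3.11.15, numpy 2.4.6, pandas 2.3.3 and matplotlib 3.10.9.

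Positions and promoters are RefSeq, GRCm38.p6; all 162 members matched by gene ID, and 129 had a promoter. The members, lists and tests were chosen with earlier results of these data known. Named are members that passed, the 4 highest and the 3 of smallest p per family, up to 2 untested ones, and in each companion list those that passed or else the 2 of smallest p; other genes were named after their values were seen. Alternatives changed the added constant, minimum, scaling, variance model, covariates, block and libraries. Voom on recovered reads and leaving out the shallowest library of each group were added after seeing the data.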

Additional observations from a re-analysis of the deposited data

Results flagged for a closer look

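Within a group, 1 library stood far from the others by Dixon's gap for 11 of the genes named, over 116 groups examined; chance gives about 1 in 20. For Cre-positive 1 these were Cyp4f13 (highest, 95.7 TPM, next 68.9), Cyp27a1 (highest, 101 TPM, next 48.9) and Gstm6 (lowest, 9.52 TPM, next 33.5). Cre-positive 5 was highest for Sult1d1 (187 TPM, next 142) and Cyp26b1 (1.87 TPM, next 0.762). Cre-positive 3 was highest for Sult1a1 (210.0 TPM, next 149.6), and Cre-positive 4 for Gsto2 (2.63 TPM, next 1.76). Among Cre-negative libraries, number 1 was highest for Gsta2 (1.22 TPM, next 0.262), number 3 for Cyp4f41-ps (4.52 TPM, next 3.12), and number 2 was highest for Inmt (2.99 TPM, next 1.63) and lowest for Fmo4 (3.68 TPM, next 7.04). The log2 fold change of Sult1a1 without Cre-positive 3 was -1.95.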

How the results depend on the processing

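Sult1a1 and Sult4a1 passed under all 27 alternatives, with log2 fold changes of -1.95 to -1.78 and of -4.06 to -2.07. No direction of a member that passed was reversed under any alternative. The number of members called was 4 (2 higher, 2 lower), and became 2 (0 higher) with quantile scaling, with voom on recovered reads and without the shallowest library of each group, and 10 (7 higher) with a weight per library; with the mitochondrial share as a covariate 4 were lower. All genes called were 231, and 349 with no minimum, 1092 with a weight per library, 561 with the epithelial score and 693 with the mitochondrial share as a covariate. Companion genes called were 2, and 19, 7 and 10 with the weight, the epithelial score and the mitochondrial share. Leaving out 1 library gave 2 to 4 members called (0 to 2 higher, 2 to 2 lower), 128 to 328 of all genes and 0 to 6 companion genes. The cause of these shifts was not tested.

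With the replicate number as a block, 84 of all genes, 2 members (0 higher, 2 lower) and 1 companion gene were called, and the calls of Gsta1, Cyp2d37-ps, Nr1i3 and Ppard were lost, with adjusted p of 0.167, 0.152, 0.288 and 0.133. The numbers are not shown to pair the libraries: same-numbered libraries correlated at 0.01, 0.36, -0.27, 0.20 and 0.16, and 1 of 5 matched its own number best.

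Depth limits the low members: 1 read per kilobase is worth 0.0697 to 0.129 TPM, and 86 members were below the minimum for testing. For named single genes, 1425 values kept direction and side of the threshold, 36 lost and 36 gained the threshold, and 66 moved.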
